A study of Schmidtea mediterranea with 50 samples.

Results

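The 3 days between day 9 and day 12 of *p53*(RNAi) were described from 6 of 50 libraries, the 3 *p53*(RNAi) libraries of day 12 and the 3 of day 9. The same step in the control was taken from 3 *unc22*(RNAi) libraries of each day. The worms were asexual *Schmidtea mediterranea* of the clonal line CIW4, and each library held the RNA of 10 whole worms, a biological replicate. The *p53*(RNAi) worms were fed food with double-stranded RNA of planarian *p53*, and the *unc22*(RNAi) worms food with double-stranded RNA of *unc22*, a *C. elegans* gene used as control. All worms had 3 RNAi feedings, the last on day 6, so day 9 lay 3 days and day 12 lay 6 days after the last RNAi food. Time on RNAi and time since that food cannot be told apart.

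Planarians renew every tissue from neoblasts, the dividing adult stem cells, which are marked by the PIWI gene *smedwi-1*. Neoblast daughters stop dividing and pass through the mesenchyme on their way to the epidermis, and the late ones among them are marked by *AGAT-1*, a glycine amidinotransferase of creatine synthesis. The planarian homolog of the tumor suppressor p53 is expressed in neoblasts and their early daughters and is required for both to be maintained.

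At day 9 the *p53*(RNAi) worms had slightly more RNA of most cell cycle genes than control worms, and at day 12 less of most by the mean. At day 12 all 3 *p53*(RNAi) libraries lay below all 3 of *unc22*(RNAi) for 22 of 60 of them. That held for 17.5% of all transcripts tested and for 1028 of the 1595 with a description. The DNA replication and cell cycle transcripts fell nearly as a block: 57 of 60 were called lower at day 12 than at day 9 in *p53*(RNAi) and 0 higher, with a median change of -0.71 on the scale of log2(RPKM + 0.5). In *unc22*(RNAi) 9 of 60 were lower and 0 higher, with a median of -0.15. Over all 25079 transcripts tested, 14% were called lower and 12.9% higher in the *p53*(RNAi) step, with a median of 0.04, and 5.21% lower and 4.88% higher in the *unc22*(RNAi) step, with a median of -0.01. A call here is an adjusted p under 0.05 in limma. Most changes were small, since 103 transcripts (0.411%) fell and 23 (0.0917%) rose by more than 1 log2 unit in *p53*(RNAi), and 43 (0.171%) fell and 8 (0.0319%) rose by as much in *unc22*(RNAi). RNA of whole worms was measured, so fewer cells of a type and less RNA per cell cannot be told apart.

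**Figure D1:**
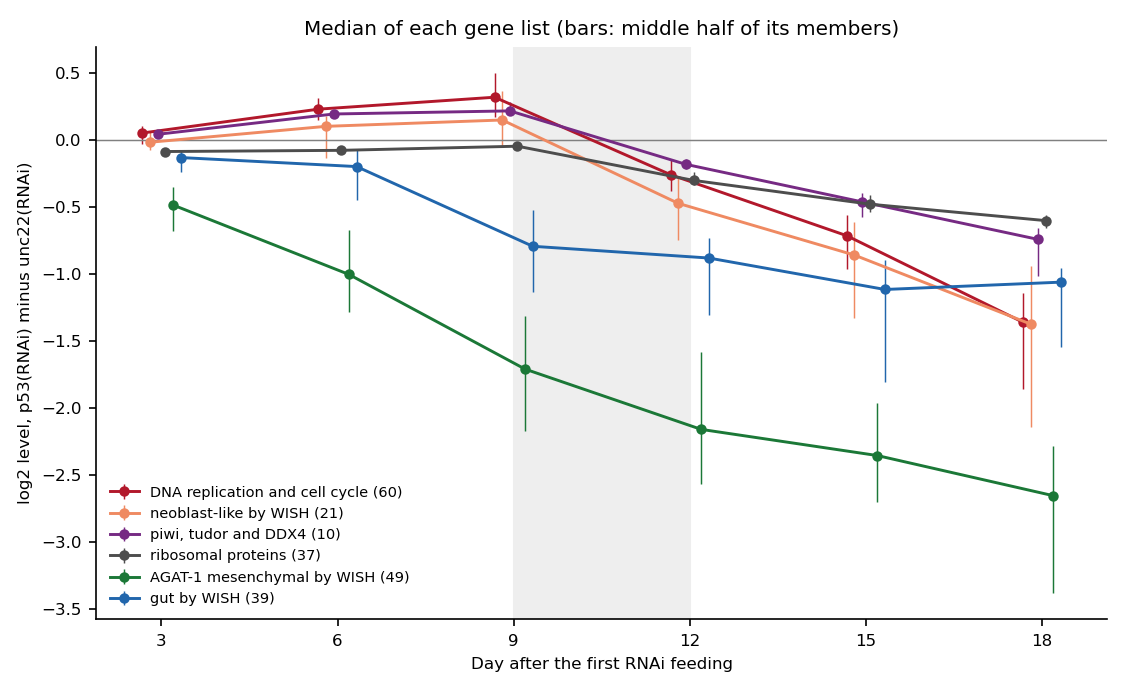
Median log2 level of 6 gene lists, *p53*(RNAi) minus *unc22*(RNAi), on each of days 3, 6, 9, 12, 15 and 18, with bars over the interquartile range of each list's members and the span from day 9 to day 12 shaded. The cell cycle median was 0.32 at day 9 and -0.26 at day 12, while the median of the *AGAT-1* mesenchymal list was already -1.71 at day 9.

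The libraries of the 4 groups held 13900000 to 26300000 reads as recovered from the RPKM values, and 1 RPKM was about 11.1 reads for a transcript of the median length of 584 bases. In *p53*(RNAi) day 9 replicate 1, 524 transcripts lay more than 1 log2 unit below both other libraries of its group, against 24 to 195 in the other 11 libraries. The median SD of its group was 0.173 log2 units with it and 0.0996 without it, against 0.0979 to 0.132 in the other 16 groups. Another library also bears on the results, because *p53*(RNAi) day 12 replicate 1 had the lowest level of its group in 52 of the 60 cell cycle transcripts. Counts without each of these 2 libraries are therefore given where they differed most. Descriptions of transcripts are those of the study's lists, mostly names of Swiss-Prot proteins of other animals with some names from other sources, so the roles given below were learned in other species unless a planarian gene name is given. The descriptions and the in situ patterns came from lists the study chose on these libraries, so the direction of a list's change is not independent evidence. With 3 libraries against 3, an exact permutation test cannot give a two-sided p under 0.1, so the tests are those of limma over all transcripts.

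The targeted gene was low in both *p53*(RNAi) groups. *p53* (SMED30026364) had 2.29, 6.63 and 3.38 RPKM in replicates 1 to 3 at day 12 and 6.05, 8.79 and 4.33 RPKM at day 9, against 36.4, 35.5 and 34.0 RPKM in *unc22*(RNAi) at day 12 and 38.8, 40.8 and 39.2 RPKM at day 9. Every *p53*(RNAi) library lay below every *unc22*(RNAi) library, and the 2 days of *p53*(RNAi) overlapped. The step was -0.64 in *p53*(RNAi) (SE 0.17, limma adjusted p = 0.0032), but a fit to the 4 groups of these days alone gave an adjusted p of 0.13. The difference from the control's step did not pass the test (-0.48, SE 0.24, limma adjusted p = 0.23).

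The neoblast marker *smedwi-1* (SMED30007406), a PIWI protein of the pathway that silences transposons, had 90.7, 121 and 158 RPKM in *p53*(RNAi) at day 12 and 296, 299 and 280 RPKM at day 9. In *unc22*(RNAi) it had 168, 179 and 164 RPKM at day 12 and 240, 229 and 214 RPKM at day 9. The *p53*(RNAi) libraries thus lay above all control libraries at day 9 and below all of them at day 12. It fell by 1.28 log2 units in *p53*(RNAi) (SE 0.11, limma adjusted p = 4.7e-11) and by 0.41 in *unc22*(RNAi) (SE 0.11, limma adjusted p = 0.011), and the steps differed by -0.86 (SE 0.16, limma adjusted p = 0.00065). These values rest on a spread shared by all groups of the fit. With the 4 groups alone the fall in *p53*(RNAi) had a limma adjusted p of 0.00029. The difference was -0.85 without *p53*(RNAi) day 9 replicate 1 and -0.66 without day 12 replicate 1, each still called. It was not called in the fit to the 4 groups alone (limma adjusted p = 0.0997). Over the whole course the mean of *smedwi-1* in *p53*(RNAi) was 250 RPKM at day 3, 286 at day 6, 292 at day 9, 123 at day 12, 63.1 at day 15 and 21.6 at day 18, so the largest drop between neighbouring days in RPKM was the one from day 9 to day 12. The means of *unc22*(RNAi) on these days were 243, 227, 228, 171, 163 and 163 RPKM. As a ratio of means, *smedwi-1* in *p53*(RNAi) dropped more from day 15 to day 18, which had 2 libraries, than from day 9 to day 12.

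Genes of the germ granule and piRNA pathway moved with it. All 10 transcripts of the list of PIWI, tudor and DDX4 proteins fell in *p53*(RNAi) (median -0.64) and 8 of 10 fell in *unc22*(RNAi) (median -0.23). *smedwi-2* (SMED30014446), a PIWI gene that neoblasts need for making functional daughters, had 144, 159 and 181 RPKM in *p53*(RNAi) at day 12 and 273, 272 and 260 RPKM at day 9, against 191, 193 and 180 RPKM in *unc22*(RNAi) at day 12 and 243, 236 and 228 RPKM at day 9. Its fall was -0.74 in *p53*(RNAi) and -0.33 in *unc22*(RNAi), with a difference of -0.41 (SE 0.07, limma adjusted p = 0.00016). A homolog of the RNA helicase DDX4 (SMED30031463), known as vasa in flies, averaged 64.6 ± 10.1 RPKM in *p53*(RNAi) at day 12 and 121 ± 4.84 RPKM at day 9, against 74.3 ± 2.75 and 95.0 ± 4.82 RPKM in *unc22*(RNAi) (SD, n = 3 each). The control worms thus also had less of this RNA at day 12, and the fall was larger in *p53*(RNAi) for 9 of 10 members of the list by the test of the difference.

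**Figure D2:**
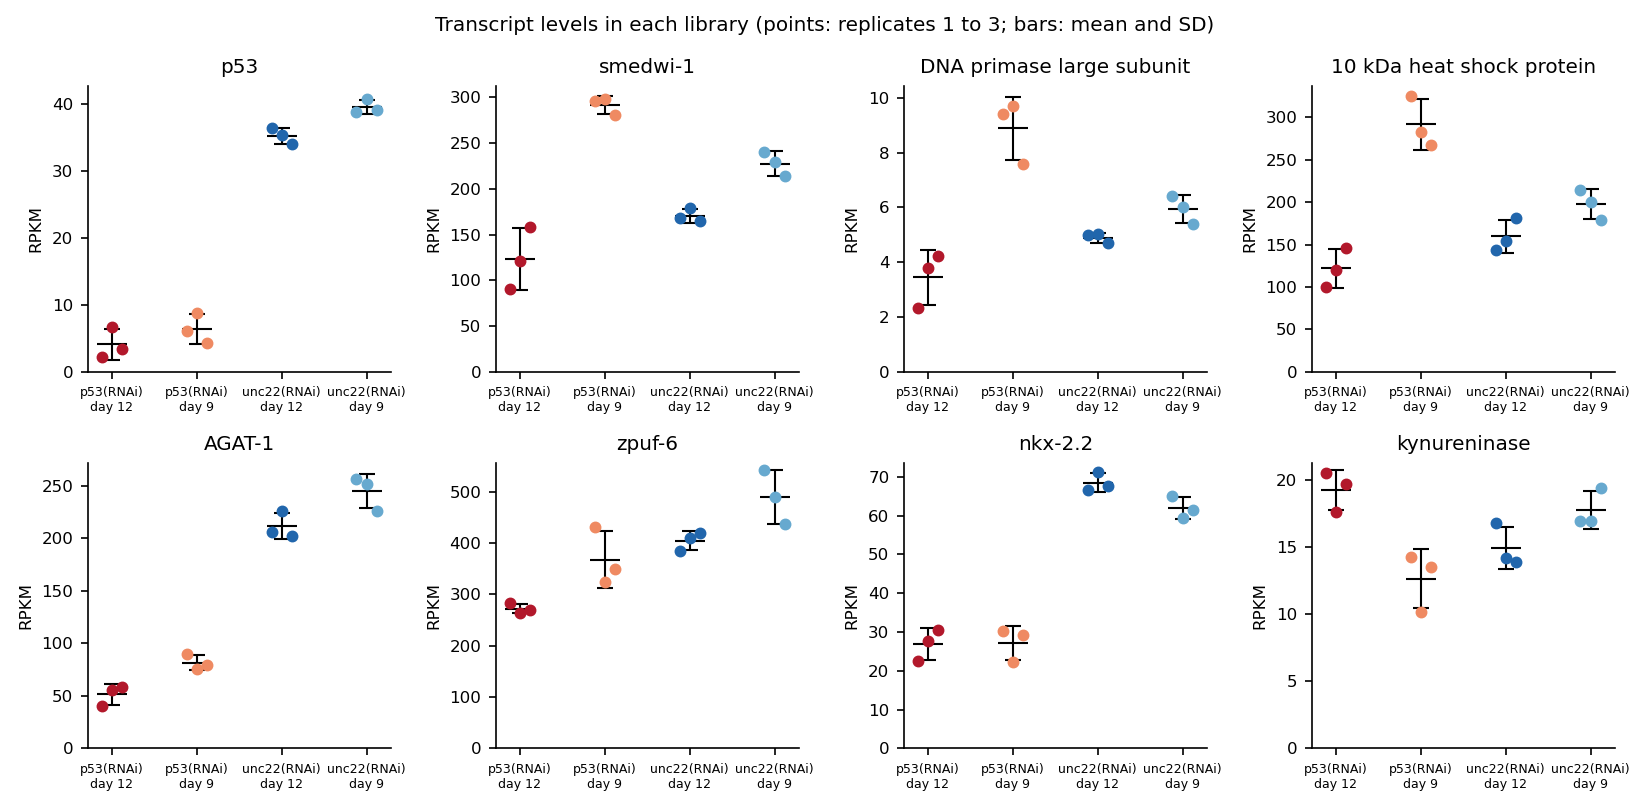
RPKM of 8 transcripts in the 12 libraries of *p53*(RNAi) day 12, *p53*(RNAi) day 9, *unc22*(RNAi) day 12 and *unc22*(RNAi) day 9, with points for replicates 1 to 3 and bars for mean and SD. *smedwi-1* in *p53*(RNAi) lay at 90.7 to 158 RPKM at day 12 and 280 to 299 RPKM at day 9, while *nkx-2.2* was near 27 RPKM on both days.

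The transcripts of DNA replication and division fell with the neoblast markers. In 57 of 60 the 3 day 12 libraries of *p53*(RNAi) all lay below its 3 day 9 libraries. That held for 15.6% of all transcripts tested and for 578 of the 1595 with a description. The mean of 57 of the 60 was above that of *unc22*(RNAi) at day 9, and the mean of 8 was above it at day 12. The DNA primase large subunit (SMED30036024), which lays the RNA primers of DNA synthesis, had 2.33, 3.80 and 4.23 RPKM in *p53*(RNAi) at day 12 and 9.41, 9.70 and 7.57 RPKM at day 9, against 4.98, 5.02 and 4.69 RPKM in *unc22*(RNAi) at day 12 and 6.40, 6.03 and 5.4 RPKM at day 9. It thus had more RNA than every control library at day 9 and less than every one at day 12, and its fall was -1.28 (SE 0.15, limma adjusted p = 2.2e-08).

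Other parts of the replication and division machinery changed alike. PSF3 (SMED30028865), a subunit of the GINS complex of the replicative helicase, averaged 5.46 ± 1.59 RPKM at day 12 and 11.2 ± 2.2 RPKM at day 9 in *p53*(RNAi), against 6.73 ± 0.584 and 6.51 ± 0.569 RPKM in *unc22*(RNAi) (SD, n = 3 each). A Wee1-like kinase (SMED30024908), which holds cells back from mitosis, had 0.870, 0.975 and 1.67 RPKM in *p53*(RNAi) at day 12 and 3.23, 2.57 and 3.32 RPKM at day 9, while *unc22*(RNAi) had 2.33, 2.05 and 2.21 RPKM at day 12 and 2.10, 2.31 and 1.73 RPKM at day 9. The regulatory subunit 2 of cyclin-dependent kinases (SMED30015678) averaged 6.56 ± 1.39 RPKM at day 12 and 14.7 ± 1.88 RPKM at day 9 in *p53*(RNAi), against 9.45 ± 1.22 and 10.1 ± 1.35 RPKM in *unc22*(RNAi). These genes changed little in control worms, with steps of 0.05, 0.09 and -0.08 that did not pass the test.

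DNA repair transcripts shared the fall, with 22 of 24 lower and 0 higher in *p53*(RNAi) (median -0.70) and 2 of 24 lower in *unc22*(RNAi) (median -0.14). The count in *p53*(RNAi) was 22 without the doubted day 9 library and 21 without the day 12 one. The checkpoint protein RAD17 (SMED30021612), which loads a clamp at damaged DNA, had 0.704, 1.08 and 1.61 RPKM in *p53*(RNAi) at day 12 and 2.39, 3.40 and 2.66 RPKM at day 9, against 3.23, 2.65 and 1.86 RPKM in *unc22*(RNAi) at day 12 and 2.21, 1.94 and 1.96 RPKM at day 9. The *p53*(RNAi) days did not overlap and the control days did. Exonuclease 1 (SMED30025421), which trims DNA ends in mismatch and break repair, averaged 2.78 ± 0.529 RPKM in *p53*(RNAi) at day 12 and 5.51 ± 0.598 RPKM at day 9, against 4.31 ± 0.629 and 4.16 ± 0.199 RPKM in *unc22*(RNAi) (SD, n = 3 each). The helicase MCM8 (SMED30001391), a recombination factor, had a step of -1.03 in *p53*(RNAi) (SE 0.13, limma adjusted p = 8.1e-08). Its levels were near 1 RPKM, with means of 0.848 ± 0.204 RPKM at day 12 and 2.23 ± 0.208 RPKM at day 9. In *unc22*(RNAi) they were 1.53 ± 0.349 and 1.69 ± 0.161 RPKM (SD, n = 3 each).

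Of 21 transcripts whose in situ pattern the study classed as neoblast-like, 19 fell and 0 rose in *p53*(RNAi) (median -0.64), against 2 lower and 1 higher in *unc22*(RNAi) (median -0.04). Their means lay above control in 14 of 21 at day 9 and in 2 of 21 at day 12, and those of all transcripts in 12947 of 25079 at day 9 and 12804 at day 12. The 14 of 21 were thus no clear excess over control at day 9. The in situ screen drew on transcripts the study had called lower than control in *p53*(RNAi), at day 12 among other days. The low count of 2 of 21 at day 12 was thus largely set by that choice, which also bears on the step. One of the 21 was a CELF RNA-binding protein (SMED30023062), a regulator of splicing and mRNA decay. It had 47.7, 58.3 and 71.9 RPKM in *p53*(RNAi) at day 12 and 111, 119 and 107 RPKM at day 9, against 90.6, 90.6 and 89.0 RPKM in *unc22*(RNAi) at day 12 and 101, 104 and 97.7 RPKM at day 9. The steps were -0.94 in *p53*(RNAi) and -0.16 in *unc22*(RNAi), and they differed by -0.77 (SE 0.11, limma adjusted p = 7.6e-05).

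Histone transcripts fell in both conditions, 7 of 12 in *p53*(RNAi) and 5 of 12 in *unc22*(RNAi), with 1 rising in *p53*(RNAi). In the difference of the steps 5 of 12 were lower, 0 higher and 7 not called, with a median of -0.09. An H2B (SMED30021461) had 3.11, 5.34 and 5.10 RPKM in *p53*(RNAi) at day 12 and 21.9, 22.0 and 14.8 RPKM at day 9, against 5.38, 4.84 and 7.35 RPKM in *unc22*(RNAi) at day 12 and 12.0, 13.1 and 11.3 RPKM at day 9. Its day 12 libraries of both conditions overlapped, and its day 9 libraries did not. The fall was -2.01 in *p53*(RNAi) and -1.01 in *unc22*(RNAi) (difference -1.0, SE 0.23, limma adjusted p = 0.0047). H2A.Z (SMED30030543), a variant histone of promoters, had a step of -1.21 in *p53*(RNAi) and -0.24 in *unc22*(RNAi). Histone transcripts resemble each other, and near-identical ones may share reads in these values.

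RNA processing and protein synthesis genes also fell, by less. Among 30 splicing and RNA processing transcripts 27 were lower in *p53*(RNAi) (median -0.51), while in *unc22*(RNAi) 9 were lower and 3 higher (median -0.11). The splicing regulator hnRNP F (SMED30029855) had 59.5, 59.6 and 64.9 RPKM in *p53*(RNAi) at day 12 and 100, 92.2 and 90.4 RPKM at day 9, against 78.7, 77.2 and 73.2 RPKM in *unc22*(RNAi) at day 12 and 80.9, 76.9 and 78.6 RPKM at day 9. Its steps differed by -0.57 (SE 0.07, limma adjusted p = 1.5e-06), and it was among the few transcripts whose difference was also called in the fit to the 4 groups alone (limma adjusted p = 0.026).

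The nucleolus list showed steps in opposite directions. Of 22 transcripts of ribosome assembly, 11 fell and 3 rose in *p53*(RNAi) (median -0.21), and 0 fell and 8 rose in *unc22*(RNAi) (median 0.13). The ribosome assembly factor MRTO4, here called mRNA turnover protein 4 (SMED30013497), had 45.7, 54.3 and 58.1 RPKM in *p53*(RNAi) at day 12 and 65.8, 51.4 and 59.6 RPKM at day 9, against 83.3, 79.1 and 80.4 RPKM in *unc22*(RNAi) at day 12 and 59.2, 59.0 and 59.1 RPKM at day 9. Its *p53*(RNAi) days overlapped, its step there did not pass the test (-0.16, limma adjusted p = 0.12), and it rose in *unc22*(RNAi) by 0.45. Ribosomal proteins were called lower in 32 of 37 cases in *p53*(RNAi) with a small median of -0.26, and in 2 of 37 in *unc22*(RNAi). That count was 24 without *p53*(RNAi) day 9 replicate 1, 27 without day 12 replicate 1, 9 in the fit to the 4 groups, and 3 in the fit to those groups without that library. In 36 of the 37, that library had the highest level of its group.

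Chaperones fell as well, with 12 of 14 lower in *p53*(RNAi) (median -0.38) and 1 of 14 in *unc22*(RNAi). The mitochondrial 10 kDa heat shock protein (SMED30026539), which caps the chamber in which mitochondrial proteins fold, had 100, 120 and 146 RPKM in *p53*(RNAi) at day 12 and 326, 282 and 268 RPKM at day 9, against 144, 154 and 181 RPKM in *unc22*(RNAi) at day 12 and 214, 200 and 179 RPKM at day 9. It was above every control library at day 9 and overlapped with them at day 12. Its partner, the 60 kDa heat shock protein (SMED30004256), had a step of -0.76 in *p53*(RNAi) (SE 0.09, limma adjusted p = 5.1e-08).

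The largest differences of the steps with a description included 2 transcripts outside these lists. Thioredoxin peroxidase 2 (SMED30030295), a peroxiredoxin that removes hydrogen peroxide, had 19.3, 25.9 and 34.9 RPKM in *p53*(RNAi) at day 12 and 74.7, 70.2 and 59.0 RPKM at day 9, against 49.9, 46.5 and 48.4 RPKM in *unc22*(RNAi) at day 12 and 50.4, 46.2 and 46.3 RPKM at day 9. It changed by 0.02 in control worms and lay above them at day 9 of *p53*(RNAi) and below them at day 12. The difference of its steps was -1.38 (SE 0.18, limma adjusted p = 1.6e-05) and was called in the fit to the 4 groups as well (limma adjusted p = 0.039). Its mean in *p53*(RNAi) went on to 13.4 RPKM at day 15 and 4.51 RPKM at day 18, against 43.8 and 43.7 RPKM in *unc22*(RNAi). Nuclear transport factor 2 (SMED30021074), which carries Ran into the nucleus, had 8.58, 12.6 and 20.6 RPKM in *p53*(RNAi) at day 12 and 37.2, 33.4 and 31.7 RPKM at day 9, with a difference of the steps of -1.30 (SE 0.21, limma adjusted p = 0.00017).

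**Figure D3:**
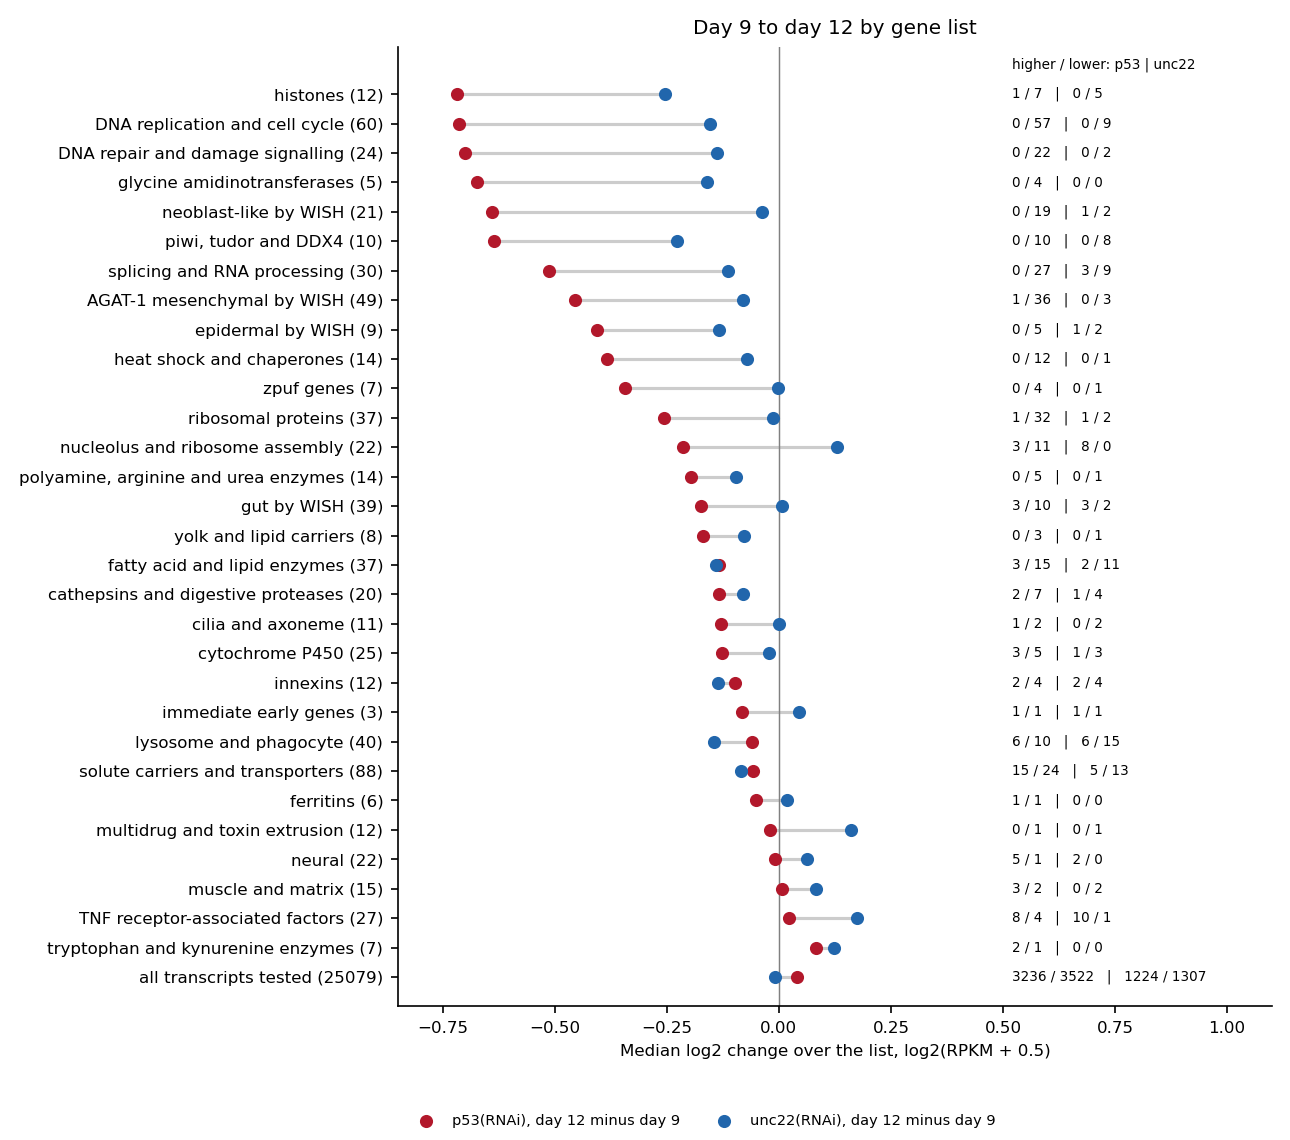
Median log2 change from day 9 to day 12 of each gene list, in *p53*(RNAi) (red) and *unc22*(RNAi) (blue), with the number of members tested in brackets and the members called higher and lower at the right. The cell cycle medians lay at -0.71 and -0.15, and the muscle and matrix medians at 0.01 and 0.08.

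RNA of *AGAT-1* and of transcripts with its in situ pattern was already lower than in control worms at day 9, and most of these transcripts fell further by day 12. *AGAT-1* (SMED30018353) had 39.9, 55.9 and 58.5 RPKM in *p53*(RNAi) at day 12 and 89.7, 75.7 and 78.9 RPKM at day 9, against 206, 226 and 202 RPKM in *unc22*(RNAi) at day 12 and 256, 252 and 226 RPKM at day 9. The days did not overlap in either condition. The step was -0.67 in *p53*(RNAi) (SE 0.10, limma adjusted p = 9.4e-07) and -0.21 in *unc22*(RNAi) (limma adjusted p = 0.18), and they differed by -0.46 (SE 0.14, limma adjusted p = 0.031). That difference lost its call without *p53*(RNAi) day 9 replicate 1 (-0.39, limma adjusted p = 0.10) and without day 12 replicate 1 (-0.29, limma adjusted p = 0.18). Another glycine amidinotransferase transcript (SMED30009513) had similar levels, 53.2 ± 12.4 and 85.4 ± 4.91 RPKM at days 12 and 9 of *p53*(RNAi), and whether they share reads was not tested. Among 5 glycine amidinotransferases 4 fell in *p53*(RNAi) and 0 in *unc22*(RNAi), and the 3 called lower in the difference became 0 without either doubted library.

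Of 49 transcripts with an *AGAT-1* mesenchymal pattern, 36 fell and 1 rose in *p53*(RNAi) (median -0.46), against 3 lower and 0 higher in *unc22*(RNAi) (median -0.08). The falls numbered 25 without *p53*(RNAi) day 9 replicate 1, where 10.5% of all transcripts fell and 11.9% rose. They numbered 21 without day 12 replicate 1, where 11.1% fell and 8.18% rose. At day 12 all 49 had their 3 *p53*(RNAi) libraries below the 3 of *unc22*(RNAi), which held for 17.5% of all transcripts and for 1028 of the 1595 with a description. The study took transcripts for its in situ screen from those it had called lower than control in *p53*(RNAi), at day 12 among other days. This direction was thus largely set by that choice. The list's median against control was -0.48 at day 3, -1.0 at day 6, -1.71 at day 9 and -2.16 at day 12, so the greater part of its distance from control was there before the step. In replicates 1, 2 and 3 of day 12 the list's median stood at -0.82, -0.24 and -0.37 against the day 9 mean, a wide spread between libraries.

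The metabolic lists were mixed. Of all 1595 transcripts with a description, 583 fell and 200 rose in *p53*(RNAi), and 228 fell and 176 rose in *unc22*(RNAi). The shares of lipid and of polyamine enzymes that fell in *p53*(RNAi) were near that of the described set. Of 37 fatty acid and lipid enzymes 15 fell and 3 rose in *p53*(RNAi) (median -0.13), against 11 and 2 in *unc22*(RNAi) (median -0.14), and in the difference 3 were lower and 4 higher. Of 14 polyamine, arginine and urea enzymes 5 fell and 0 rose in *p53*(RNAi), against 1 and 0 in *unc22*(RNAi), and 4 were lower in the difference. Of the study's candidate genes of these kinds, 3 fell in *p53*(RNAi). The phospholipase A2 gene *pla2* (SMED30011291) had 14.4, 17 and 14.3 RPKM in *p53*(RNAi) at day 12 and 28.4, 24.2 and 26.2 RPKM at day 9, against 47.8, 47.6 and 57.3 RPKM in *unc22*(RNAi) at day 12 and 57.7, 56.8 and 51.6 RPKM at day 9. *ttpal* (SMED30034257), related to the carrier of vitamin E, averaged 11 ± 1.8 RPKM at day 12 and 18.9 ± 1.27 RPKM at day 9 in *p53*(RNAi), against 32.0 ± 3.28 and 34.7 ± 0.581 RPKM in *unc22*(RNAi) (SD, n = 3 each). *odc-1* (SMED30027207), an ornithine decarboxylase of polyamine synthesis, averaged 21.3 ± 1.35 and 26.5 ± 0.647 RPKM, against 47.4 ± 3.80 and 42.2 ± 1.11 RPKM. Each of these 3 genes kept its call in the difference of the steps without either doubted library. Each lost it in the fit to the 4 groups alone (limma adjusted p = 0.077 for *pla2*, 0.095 for *ttpal* and 0.077 for *odc-1*). The acyl-CoA synthetase genes *acsl-1* (SMED30005508) and *acsl-2* (SMED30013319) did not pass the test, with steps in *p53*(RNAi) of -0.04 (limma adjusted p = 0.81) and 0.16 (limma adjusted p = 0.077), though *acsl-2* was called higher without *p53*(RNAi) day 9 replicate 1 (limma adjusted p = 0.032). Of 25 cytochrome P450 genes 5 were lower and 3 higher in *p53*(RNAi), which is near the share over all transcripts. The candidate *cyp3142A1* (SMED30031568) had 10.0 ± 1.82 RPKM at day 12 and 14 ± 1.39 RPKM at day 9, a step of -0.47.

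Of the *zpuf* genes, which encode small proteins of unknown function, 4 of 7 fell in *p53*(RNAi) with all libraries, and 2 of 7 without *p53*(RNAi) day 9 replicate 1, without day 12 replicate 1 or in the fit to the 4 groups. *zpuf-5* (SMED30000827) had 165, 170 and 167 RPKM in *p53*(RNAi) at day 12 and 291, 206 and 251 RPKM at day 9, against 335, 326 and 401 RPKM in *unc22*(RNAi) at day 12 and 403, 368 and 346 RPKM at day 9. Its difference of the steps (-0.49, limma adjusted p = 0.015) lost its call without *p53*(RNAi) day 9 replicate 1 (-0.37, limma adjusted p = 0.073). *zpuf-3* (SMED30028142), with 24.6, 63.4 and 44.3 RPKM in *p53*(RNAi) at day 12 and 59.2, 37.8 and 57.4 RPKM at day 9, overlapped between the days and did not pass the test. *zpuf-6* (SMED30030681), which is also expressed in the epidermis, had 283, 264 and 270 RPKM in *p53*(RNAi) at day 12 and 430, 323 and 349 RPKM at day 9, against 385, 409 and 420 RPKM in *unc22*(RNAi) at day 12 and 543, 490 and 438 RPKM at day 9. It fell in both conditions, by 0.42 and 0.27, with no called difference (-0.15, SE 0.12, limma adjusted p = 0.51). *vim-3* (SMED30024865), an intermediate filament gene of late epidermal daughters, had 154, 134 and 138 RPKM in *p53*(RNAi) at day 12 and 155, 121 and 135 RPKM at day 9, a step of 0.06 that did not pass.

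Gut, nerve and muscle lists moved less in this step. In *p53*(RNAi) 583 of the 1595 described transcripts fell and 200 rose, and 14% and 12.9% of all transcripts tested. Of 39 gut transcripts 10 fell and 3 rose in *p53*(RNAi) (median -0.17), and 2 fell and 3 rose in *unc22*(RNAi) (median 0.01). The falls in *p53*(RNAi) numbered 7 without *p53*(RNAi) day 9 replicate 1 and 6 without day 12 replicate 1. The gut homeobox gene *nkx-2.2* (SMED30011793) had 22.5, 27.7 and 30.5 RPKM in *p53*(RNAi) at day 12 and 30.3, 22.3 and 29.3 RPKM at day 9, a step of -0.02 (SE 0.14) that did not pass, against 66.8, 71.3 and 67.6 RPKM in *unc22*(RNAi) at day 12 and 65.0, 59.4 and 61.5 RPKM at day 9. The gut list's median against control was -0.20 at day 6, -0.79 at day 9 and -0.88 at day 12, so most of its fall came between days 6 and 9. Of 22 neural transcripts 1 fell and 5 rose in *p53*(RNAi), and their summed level was 263 to 278 RPKM at day 12 and 263 to 268 RPKM at day 9, against 260 to 264 and 254 to 259 RPKM in *unc22*(RNAi). Of 15 muscle and matrix transcripts 2 fell and 3 rose, with sums of 494 to 508 RPKM at day 12 and 486 to 545 RPKM at day 9, against 699 to 707 and 678 to 703 RPKM in *unc22*(RNAi). Of 11 transcripts of cilia 2 fell and 1 rose, with sums of 825 to 912 RPKM at day 12 and 940 to 1197 RPKM at day 9, against 1313 to 1372 and 1235 to 1351 RPKM in *unc22*(RNAi). The alpha-tubulin in that list (SMED30031235) had 74.2, 101 and 136 RPKM in *p53*(RNAi) at day 12 and 187, 145 and 172 RPKM at day 9, with a step of -0.73.

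The transcripts that rose were fewer among those described, 200 higher against 583 lower in *p53*(RNAi) of 1595 tested. Over all 25079 transcripts 3236 were higher and 3522 lower. Only transcripts in the study's lists have a description, so the imbalance holds for that chosen set and not for all transcripts. Several of the transcripts that rose did so in control worms too. A saposin-C (SMED30022652), an activator of lysosomal glucosylceramide breakdown, had 166, 150 and 142 RPKM in *p53*(RNAi) at day 12 and 93.7, 59.3 and 91.3 RPKM at day 9, against 110, 112 and 138 RPKM in *unc22*(RNAi) at day 12 and 64.0, 70.2 and 77.3 RPKM at day 9. Its rise was 0.93 in *p53*(RNAi) and 0.76 in *unc22*(RNAi) (difference 0.17, SE 0.18, limma adjusted p = 0.65). A homolog of the ubiquitin ligase MIB1 (SMED30035592), which promotes Notch signalling by acting on Notch ligands, had 34.6, 24.4 and 26.9 RPKM at day 12 and 17.1, 14.7 and 16.4 RPKM at day 9 in *p53*(RNAi), against 18.8, 19.4 and 20.8 RPKM and 14.2, 15.2 and 14.4 RPKM in *unc22*(RNAi). It rose by 0.80 and 0.42, with a difference of 0.38 that did not pass (SE 0.14, limma adjusted p = 0.099). The immediate early gene *egr-3* (SMED30009224) rose by 0.69 in *p53*(RNAi) and by 1.14 in *unc22*(RNAi), and *jun-1* (SMED30001802) fell in both, by 0.56 and 0.45.

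Other transcripts rose in *p53*(RNAi) relative to the control's step. Kynureninase (SMED30005062), an enzyme of tryptophan breakdown, had 20.5, 17.6 and 19.7 RPKM in *p53*(RNAi) at day 12 and 14.3, 10.2 and 13.5 RPKM at day 9, against 16.8, 14.2 and 13.9 RPKM in *unc22*(RNAi) at day 12 and 17, 16.9 and 19.4 RPKM at day 9. It was below every control library at day 9 and above every one at day 12, with steps of 0.60 and -0.24 and a difference of 0.84 (SE 0.14, limma adjusted p = 0.00019). Cathepsin L2 (SMED30017940), a lysosomal protease, had 793, 780 and 745 RPKM in *p53*(RNAi) at day 12 and 635, 545 and 629 RPKM at day 9, against 505, 526 and 526 RPKM in *unc22*(RNAi) at day 12 and 576, 549 and 555 RPKM at day 9, with a difference of 0.47 (SE 0.09, limma adjusted p = 0.00082). Acid sphingomyelinase-like phosphodiesterase 3b (SMED30031509) averaged 7.83 ± 0.696 RPKM at day 12 and 4.90 ± 0.352 RPKM at day 9 in *p53*(RNAi), against 4.14 ± 0.274 and 4.26 ± 0.351 RPKM in *unc22*(RNAi) (SD, n = 3 each).

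In the lysosome and phagocyte list, 6 of 40 rose and 10 fell in *p53*(RNAi), and 6 rose and 15 fell in *unc22*(RNAi). In the difference of the steps 4 of these were higher and 0 lower. Of the 1595 described transcripts 200 rose and 583 fell in *p53*(RNAi), and 176 rose and 228 fell in *unc22*(RNAi). In the difference 55 of the described set were higher and 272 lower. The lysosome and phagocyte member with the largest fall was a homolog of the macrophage mannose receptor (SMED30007501), a lectin that binds microbial sugars. It had 3.31, 3.88 and 4.62 RPKM in *p53*(RNAi) at day 12 and 21.5, 30.8 and 18.6 RPKM at day 9, against 2.72, 3.36 and 5.4 RPKM in *unc22*(RNAi) at day 12 and 18.4, 14.2 and 13.5 RPKM at day 9. Both conditions lost most of it, by 2.42 and 1.91 log2 units, and the difference did not pass (-0.51, SE 0.50, limma adjusted p = 0.61). Among 88 solute carriers and transporters 24 fell and 15 rose in *p53*(RNAi), against 13 and 5 in *unc22*(RNAi). In the difference of the steps 4 of these 88 were lower and 6 higher, and the glycine transporter 1 homolog (SMED30026809) was the most negative. This transporter had 10.1, 11.4 and 8.97 RPKM in *p53*(RNAi) at day 12 and 18.0, 19.3 and 18.5 RPKM at day 9. In *unc22*(RNAi) it had 18.0, 19.2 and 18.5 RPKM at day 12 and 20.2, 19.3 and 17.8 RPKM at day 9. Its difference of -0.81 (SE 0.10, limma adjusted p = 2.7e-06) was called with every single library of the 4 groups left out in turn and in the fit to the 4 groups (limma adjusted p = 0.026).

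**Figure D4:**
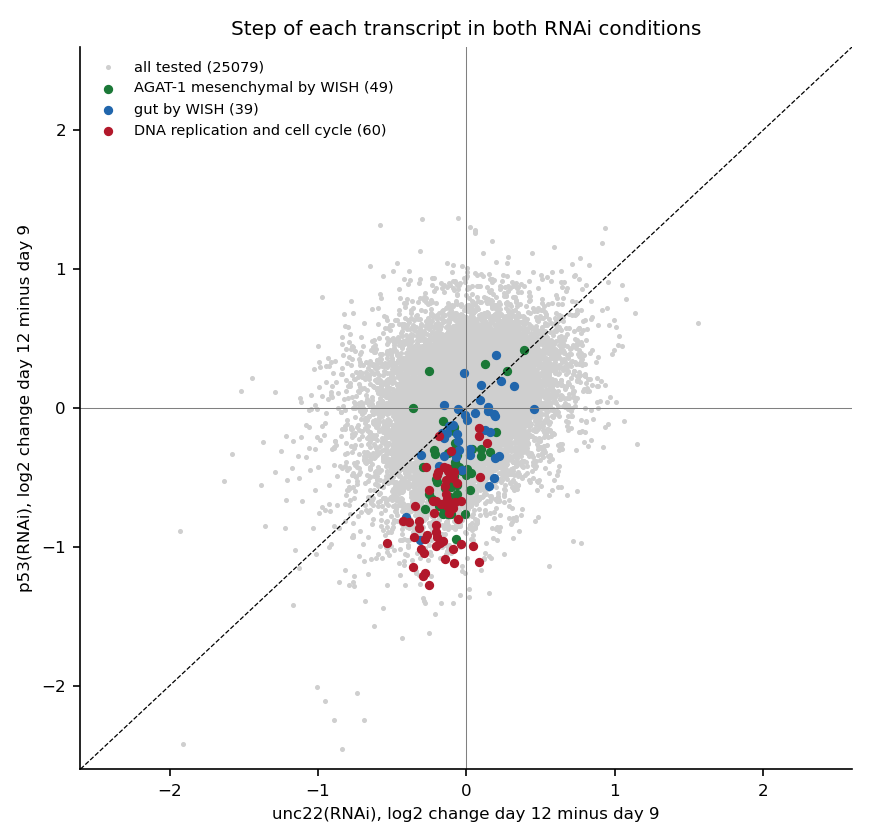
Log2 change from day 9 to day 12 of each of 25079 transcripts in *unc22*(RNAi) (horizontal) and *p53*(RNAi) (vertical), with 3 gene lists in colour, the line of equal change dashed and 2 transcripts beyond the axes left out. All 60 cell cycle transcripts lay below the line, with changes of -1.28 to -0.15 in *p53*(RNAi).

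The steps of *p53*(RNAi) and *unc22*(RNAi) differed for 1083 transcripts that fell more or rose less in *p53*(RNAi) (4.32%) and 647 that rose more or fell less (2.58%), with a median of 0.03 over all transcripts. Together these were 1730 transcripts (6.9%), of which 47 lower (0.187%) and 46 higher (0.183%) differed by more than 1 log2 unit. In the lists, 45 of 60 cell cycle, 14 of 24 repair, 12 of 21 neoblast-like, 22 of 30 splicing, 9 of 14 chaperone, 12 of 37 ribosomal protein and 16 of 49 *AGAT-1* mesenchymal transcripts were among those lower, and 1 ribosomal protein was among those higher. In both conditions 746 transcripts fell and 706 rose.

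The difference of the steps depended on how the spread was estimated. In the fit to the 4 groups of days 9 and 12 alone, 9 transcripts were called lower and 7 higher, with 1970 and 1580 at an unadjusted p under 0.05, and 0 cell cycle transcripts were called, 51 of them being lower at an unadjusted p under 0.05. The *p53*(RNAi) step itself was called lower for 55 of 60 cell cycle transcripts in that fit, for 24 of 49 *AGAT-1* mesenchymal ones and for 26 of 30 of splicing and RNA processing. Without *p53*(RNAi) day 9 replicate 1 the difference was lower for 623 transcripts (2.48%) and higher for 621 (2.48%), and 594 and 407 of these were also called with all libraries. Without *p53*(RNAi) day 12 replicate 1 it was lower for 508 (2.03%) and higher for 243 (0.969%). The cell cycle count was 39 without the day 9 library and 26 without the day 12 library, and the count of *AGAT-1* mesenchymal transcripts 10 and 6. The 12 ribosomal proteins became 2 in either case, and the 3 gut transcripts became 0. The 14 repair transcripts stayed at 14 without the day 9 library and numbered 8 without the day 12 library, and the 9 chaperones 9 and 6.

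**Figure D5:**
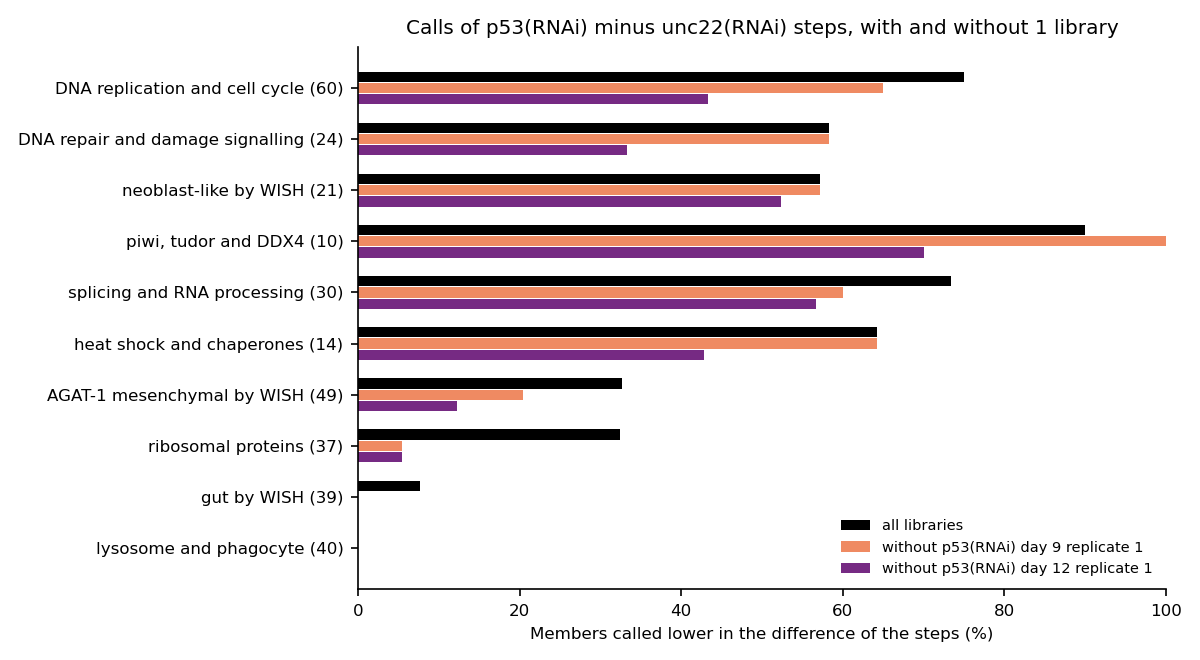
Percentage of the members of 10 gene lists called lower in the difference of the steps, with all libraries (black), without *p53*(RNAi) day 9 replicate 1 (orange) and without *p53*(RNAi) day 12 replicate 1 (purple). The cell cycle counts behind the bars were 45, 39 and 26 of 60, and those of ribosomal proteins 12, 2 and 2 of 37.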

How the data were processed

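RNA of whole worms was measured by sequencing. Per the labels and the study's methods, the authors prepared stranded TruSeq libraries and sequenced single reads of 50 bases. CASAVA 1.8.2 was among the software used to demultiplex the reads. The authors mapped the reads to an assembled transcriptome with Bowtie (settings -v 2 and -m 5, best stratum only, version not given in the sources used here). Reads were counted with their own script. The authors tested these counts with edgeR, while the deposited values used here are RPKM. Reads and counts were not analysed here. Since -m 5 admits a read matching up to 5 transcripts, near-identical transcripts may share reads.

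Relative depth was read from the steps between values under 0.5 RPKM. For 18600 of 35057 transcripts (53.06%) all values were whole reads within 0.02, and 100% of their lengths were whole bases within 0.1. This depth entered no test.

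The fit kept the 25079 transcripts that reached 1 RPKM in 2 or more libraries. limma 3.58.1 in R 4.3.3 was fitted with an intensity trend to log2(RPKM + 0.5) over all 50 libraries in 17 groups, so all groups share 1 spread per transcript. It tested the day 9 to day 12 step in *p53*(RNAi), the same step in *unc22*(RNAi) and the difference of both, two-sided, with Benjamini-Hochberg adjustment over all transcripts and a threshold of 0.05. The rest was done with pandas 2.3.3, numpy 2.4.6 and matplotlib 3.10.9 under Python 3.11.15. The limma procedure was also run on simulated data, but no outcome of that run is reported here. It is therefore no evidence that 1 shared spread suits these groups. The median SD was 0.173 log2 units in *p53*(RNAi) day 9, against 0.0979 to 0.132 in the other groups.

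Descriptions (mostly names of Swiss-Prot proteins, some from other sources) and in situ patterns were taken from supplementary lists that the study selected on these libraries. The members, the 30 gene lists and the rule for named genes were chosen with earlier results of these data known. The rule named *p53*, *chd4*, *smedwi-1*, *smedwi-2*, *egr-3*, *fos-1*, *jun-1* and the study's named candidate genes. It added the 6 largest changes in each direction with a description, for the *p53*(RNAi) step and for the difference, among transcripts with an adjusted p under 0.05, no overlap between the *p53*(RNAi) libraries of both days and a mean of 1 RPKM or more in the higher of both. It also took up to 4 called members per list with the largest difference and the 2 largest differences in each direction without a description. Of these 115 transcripts, 1 is not reported here, and the others are named where a result turns on them. Alternatives were pseudocounts of 0.1 and 2 RPKM, other filters, median-ratio scaling, library weights, a replicate block, only the 4 groups compared, and each of the 12 libraries left out.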

Additional observations from a re-analysis of the deposited data

Results flagged for a closer look

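The step from day 9 to day 12 differed between *p53*(RNAi) and *unc22*(RNAi) for 1730 transcripts by limma's test of the difference, and each value below is that difference, *p53*(RNAi) minus *unc22*(RNAi), on the scale of log2(RPKM + 0.5). Every one was past an adjusted p of 0.05 in the fit to all groups, and in the fit to the 4 groups alone 3 of the 82 named transcripts with a called difference were still called.

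Among stem cell and cell cycle genes the difference was -0.86 for *smedwi-1*, -0.41 for *smedwi-2*, -0.42 for another Piwi-like protein 1 (SMED30001362), -0.56 for DDX4 (SMED30031463) and -0.77 for the CELF homolog (SMED30023062). It was -1.02 for the DNA primase large subunit (SMED30036024), -1.04 for PSF3 (SMED30028865), -1.19 for the Wee1-like kinase (SMED30024908) and -1.03 for the regulatory subunit 2 of cyclin-dependent kinases (SMED30015678). Repair genes gave -1.31 for RAD17 (SMED30021612), -0.92 for exonuclease 1 (SMED30025421) and -0.90 for MCM8 (SMED30001391). Called histones included H2B (SMED30021461) at -1.0, H2A.Z (SMED30030543) at -0.98 and H2A.v (SMED30017222) at -0.58, while 7 of 12 histones were not called and the list's median was -0.09. A zinc finger protein (SMED30031507) was at -0.71.

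In RNA processing and ribosome assembly, the values were -0.57 for hnRNP F (SMED30029855), -0.55 for the hnRNP A1, A2/B1 homolog (SMED30012822), -0.59 for transformer-2 beta (SMED30016995), -0.73 for the LLP homolog (SMED30007534), -0.61 for mRNA turnover protein 4 (SMED30013497) and -0.58 for the ribosome biogenesis regulatory protein (SMED30020124). Ribosomal proteins gave -0.45 for L7 (SMED30001026), -0.43 for L28 (SMED30022560) and -0.36 for S15a-1 (SMED30005190). Chaperones gave -0.95 for the 10 kDa (SMED30026539) and -0.52 for the 60 kDa mitochondrial heat shock protein (SMED30004256), -0.57 for a 70 kDa heat shock protein (SMED30017448) and -0.53 for GrpE (SMED30025422). Thioredoxin peroxidase 2 (SMED30030295) was at -1.38 and nuclear transport factor 2 (SMED30021074) at -1.30.

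Among genes of neoblast daughters and metabolism, the difference was -0.46 for *AGAT-1*, -0.52 for another glycine amidinotransferase (SMED30009513), -0.56 for another amidinotransferase (SMED30019154), -0.49 for *zpuf-5*, -0.51 for *cyp3142A1*, -0.64 for *pla2*, -0.48 for *odc-1* and -0.65 for *ttpal*. An ornithine decarboxylase (SMED30014918) was at -0.68, antizyme inhibitor 2 (SMED30034746) at -0.61, D-aspartate oxidase (SMED30033916) at -0.63 and lysyl oxidase homolog 2A (SMED30027243) at -0.69. The undescribed mesenchymal transcripts SMED30000058 and SMED30016382 were at -0.75 and -0.66. The glycine transporter (SMED30026809) was at -0.81 and the alpha-tubulin (SMED30031235) at -0.67.

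Positive differences were 0.84 for kynureninase (SMED30005062), 0.74 for a Gag-Pol polyprotein (SMED30012288), 0.69 for inactive tyrosine kinase 7 (SMED30000553), 0.66 for acid sphingomyelinase-like phosphodiesterase 3b (SMED30031509), 0.65 for N-acetylmuramoyl-L-alanine amidase (SMED30028883) and 0.62 for pregnancy zone protein (SMED30020669). They were 0.56 for solute carrier family 28 member 3 (SMED30025831), 0.47 for cathepsin L2 (SMED30017940), 0.40 for granulins (SMED30003962) and 0.39 for neuron navigator 3 (SMED30035965). Among transcripts without a description that were called, did not overlap between the *p53*(RNAi) days and had a mean of at least 1 RPKM in the higher of these, the largest were 1.77 for SMED30030646, 1.67 for SMED30027925, -1.75 for SMED30012429 and -1.70 for SMED30019646, each with a mean of at most 3.02 RPKM in the 4 groups.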

How the results depend on the processing

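The calls of the *p53*(RNAi) step moved less with the processing than those of the difference of the steps. In the fit to the 4 groups alone, which has fewer samples, the *p53*(RNAi) step had 3780 calls (1485 higher, 2295 lower) against 6758, the *unc22*(RNAi) step 783 (400 higher, 383 lower) against 2531, and the difference 16 (7 higher, 9 lower) against 1730. The same fit without *p53*(RNAi) day 9 replicate 1, an alternative chosen after seeing the data, gave 3781 (1955 and 1826), 1506 (681 lower) and 15 (9 and 6). Library weights gave 1067 calls of the difference, 562 of them lower. Leaving out replicate 2 of *unc22*(RNAi) at day 6 together with that library, also chosen after seeing the data, gave 677 lower in the difference and, in the *unc22*(RNAi) step, 3008 calls (1448 higher, 1560 lower). Median-ratio scaling gave 502 higher and 1301 lower. With 1 library left out in turn, the *p53*(RNAi) step had 4843 to 6912 calls (2052 to 3299 higher, 2630 to 3715 lower), the *unc22*(RNAi) step 1579 to 2902 (811 to 1396 higher, 716 to 1506 lower) and the difference 751 to 2201 (243 to 874 higher, 508 to 1400 lower). The difference had 1011 calls (397 higher, 614 lower) without *unc22*(RNAi) day 9 replicate 3. The *unc22*(RNAi) step had 1579 without *unc22*(RNAi) day 9 replicate 1 and 811 higher without day 12 replicate 1.

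The replicate numbers did not pair the samples (correlations of same-numbered deviations between -0.09 and 0.11), and with a replicate block there were 7085, 2779 and 2056 calls. Of the named transcripts, 90 were called in the *p53*(RNAi) step and 82 in the difference, and 77 and 3 of these were still called with the 4 groups alone. No called transcript changed sign in any alternative. Uncalled differences that did were the myosin light chain kinase homolog (SMED30011307), at -0.0049 without *p53*(RNAi) day 9 replicate 3 (up to 0.62 with other libraries left out), and saposin-C, at -0.0455 without *p53*(RNAi) day 9 replicate 2 (up to 0.28). Depth limits transcripts near 1 RPKM, about 11.1 reads.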

Other observations

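The mannose receptor homolog (SMED30007501), which was low at day 12 in both conditions, had means of 12.8, 22.6, 23.6, 3.94, 6.82 and 159 RPKM in *p53*(RNAi) on days 3, 6, 9, 12, 15 and 18, against 12.5, 10.9, 15.4, 3.83, 1.22 and 0.633 RPKM in *unc22*(RNAi). The SD of the 2 libraries of *p53*(RNAi) at day 18 was 147 RPKM. The H2B transcript (SMED30021461) had 19.1, 18.0, 19.6, 4.52, 2.72 and 1.24 RPKM in *p53*(RNAi) on the same days, against 14.3, 14.3, 12.1, 5.86, 3.97 and 4.02 RPKM in *unc22*(RNAi). The myosin light chain kinase homolog (SMED30011307) had 10.5, 11 and 11.9 RPKM in *p53*(RNAi) at day 12 and 9.91, 4.20 and 3.87 RPKM at day 9, of which the high value is that of replicate 1.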
